A study of Mus musculus with 6 samples.

Results

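The genes described here encode 8 families of membrane carriers for organic anions, organic cations, drugs and metabolites, measured on arrays of fetal mouse liver. They were taken as every probe set whose single platform gene symbol begins with Slc13a, Slc16a, Slc17a, Slc22a, Slc47a, Slco, Abcb or Abcc, without the bile transporters Slco1a1, Slco1b2, Abcb4, Abcb11, Abcc2 and Abcc3. This gave 133 probe sets for 74 genes, out of 45037 probe sets and 18193 genes in all. Whole livers at E18.5 from 3 control embryos, with the genotype Hnf4LoxP/+ AlfpCre, were compared with livers from 3 null embryos, HNF4LoxP/LoxP AlfpCre. Every embryo in both groups thus carried the AlfpCre transgene and at least 1 loxP allele, and the controls were heterozygous for it. AlfpCre drives Cre from albumin and alpha-fetoprotein elements, which act in the hepatocyte lineage and not in the blood-forming, endothelial or stromal cells of the same livers. The question was which genes differ in embryonic liver when HNF4 alpha, a nuclear receptor of hepatocytes, is missing.

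Carriers of these families move substrates that cross membranes poorly on their own. Slc13a proteins bring in dicarboxylates, citrate or sulfate with sodium, Slc16a proteins carry monocarboxylates such as lactate or hormones such as thyroid hormone, and Slc17a proteins carry phosphate, urate, glutamate or other anions. Slc22a and Slco proteins take up organic ions, drugs and hormone conjugates, Slc47a proteins expel organic cations in exchange for protons, and Abcb and Abcc proteins are pumps that use ATP. In the hepatocyte such carriers sit on the blood side and on the canaliculus, and several are as well known from the kidney, gut, placenta or brain as from the liver.

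The arrays gave 1 intensity per probe set on a linear scale, with array medians of 91.8 to 99.5. A mean over the 3 arrays of a group is given with its SD after ±, and arrays are called by group and title number. Log2 changes are null minus control after a pseudocount of 32 was added, so they understate changes of dim genes. A gene was called where limma's adjusted p, taken over all 45037 probe sets, was under 0.05, and it was read through its brightest probe set. A fold is given only where both group means lie above 99.5, the highest array median. Each fold was taken from the log2 change, with 32 added, so it understates the ratio of the printed means. Levels of different probe sets cannot be set against each other. Albumin and alpha-fetoprotein transcripts read at least 10165 in all 6 livers, so the labelled tissue was borne out by these markers. Both lay near the array maxima of 11302 to 12608, so they say little on how hepatocyte RNA differed. The 5 other hepatocyte markers fell, as given below. In whole livers, fewer cells of a type and less RNA per cell cannot be told apart. Hnf4a itself read 2767 ± 142 among controls and 2039 ± 649 among nulls in its brightest probe set, with Null_1195 at 2778 inside the control range, and 2 of its 4 probe sets were called lower. Which of them read the deleted part of the gene is not given in the labels. The arrays Control_8 and Null_61 have title numbers outside the run of the other 4 and lay away from them along principal component 2 (22.4% of variance).

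Of the 74 transporter genes, 10 fell in the null livers and 0 rose. These were Slc13a3, Slc16a7, Slc17a2, Slc17a3, Slc22a7, Slc22a18, Slc22a23, Slc47a1, Slco2a1 and Abcc6. The share that fell, 13.5%, stands beside 7.85% of all genes, and 1.56% of all genes rose. By probe set, 13 of 133 fell and 0 rose, against 5.55% and 1.46% of all probe sets. At an unadjusted p under 0.05, limma had 13 of the 74 genes lower and 6 higher, where 15.2% of all genes were lower and 9.1% higher, which is near the share among the transporters. The counts given below by family, called or at an unadjusted p, stand beside these shares of all genes. In Slc16a and in Slco 7.69% of genes fell, near the 7.85% of all genes. All 10 falls were among the 49 transporter genes with a control mean above 99.5, 20.4% of them, where 11.2% of all such genes fell and 1.22% rose. Among the 25 dimmer transporter genes limma called 0 lower and 0 higher, beside 1.15% and 2.23% of all dimmer genes. The median log2 change of the 74 genes was 0.06, beside 0.01 for all genes, and most genes of each family apart from Slc47a were not called. The groups did not overlap in 14 of the 74 genes with the nulls lower and in 11 with the nulls higher, or 18.9% and 14.9%, close to the 17.9% and 13.2% found over all genes.

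**Figure D1:**
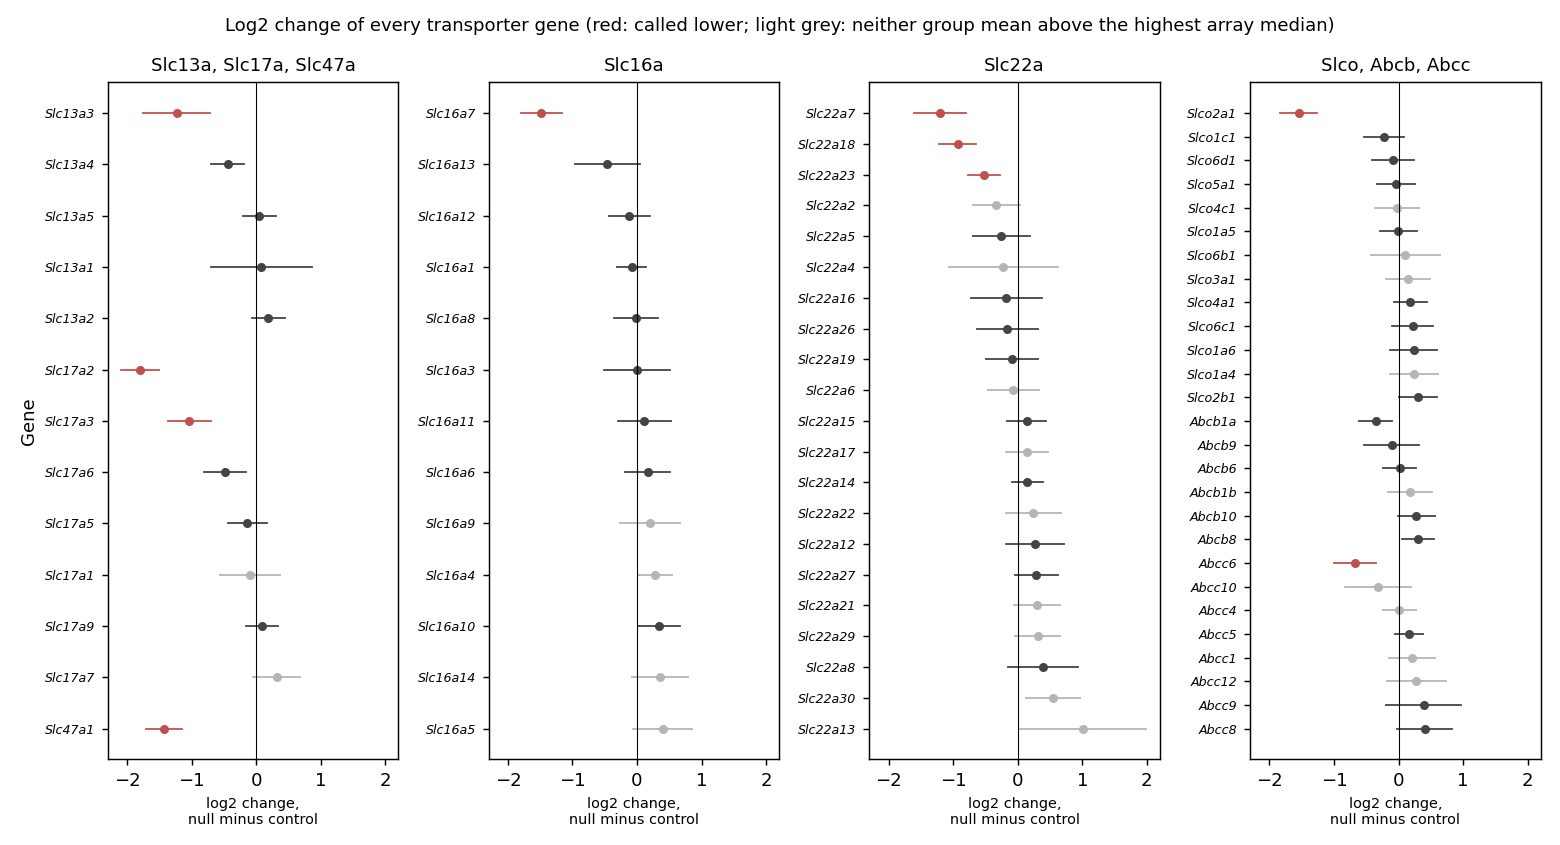
Log2 change, null minus control, of each of the 74 transporter genes in 4 panels by family, with the 95% interval from limma; red marks genes called lower and light grey marks genes with neither group mean above 99.5. The 10 red genes lie between -1.80 and -0.52, and no gene was called higher.

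The largest fall in log2 change was that of Slc17a2, and it fell together with its neighbour Slc17a3. These genes encode sodium-phosphate transporters of the Slc17 group that carry organic anions, and the human counterpart of Slc17a3 is a known urate transporter. Slc17a2, Slc17a3 and Slc17a1 follow one another on chromosome 13 in the RefSeq order of protein-coding genes. The promoter windows of the neighbours that fell are shown because they moved together, from 250 bases before to 50 after the start that the RefSeq table lists (build GRCm38.p6, plus strand; chr13:23806743-23807042 for Slc17a2 and chr13:23839184-23839483 for Slc17a3). Capitals mark the longest run of letters that both windows share, CATAGTTCAAAG.
Slc17a2: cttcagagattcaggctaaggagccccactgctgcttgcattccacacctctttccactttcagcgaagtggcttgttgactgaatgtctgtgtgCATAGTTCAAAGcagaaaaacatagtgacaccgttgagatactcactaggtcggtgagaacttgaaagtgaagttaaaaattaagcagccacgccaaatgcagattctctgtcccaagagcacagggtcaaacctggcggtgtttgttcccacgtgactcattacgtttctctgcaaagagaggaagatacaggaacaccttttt
Slc17a3: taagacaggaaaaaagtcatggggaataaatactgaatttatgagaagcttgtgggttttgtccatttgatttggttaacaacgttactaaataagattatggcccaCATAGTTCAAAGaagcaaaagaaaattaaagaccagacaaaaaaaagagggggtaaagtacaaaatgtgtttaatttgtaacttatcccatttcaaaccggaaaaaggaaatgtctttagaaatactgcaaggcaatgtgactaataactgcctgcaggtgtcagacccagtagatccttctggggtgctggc
The shared run is 12 letters long and begins 155 bases before the start of Slc17a2 and 143 before that of Slc17a3. Searched on both strands, it was found in 3 of 32851 RefSeq promoter windows of this length, the other being that of Gm41240. Since the run was picked from these windows, 2 of the 3 were fixed by that choice, and the count does not tell how often a pair of windows shares some such run. It ends in CAAAG, the core letters of many HNF4 sites, which by themselves stand in 53.9% of all windows. The longer letters CAAAGTCCA, a strong HNF4 site that contains this core, and the DR1 motif, a direct repeat of AGGTCA with 1 free base between the copies that many nuclear receptors bind, were in 0 of the 69 windows listed for 59 transporter genes, and in 0.475% and 0.0396% of all windows. Of the 10 genes that fell, 6 had a listed window, and 3 of these 6 held CAAAG. Such matches are letters in a window and show no binding.

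Slc17a2 read 311, 404 and 318 in Control_8, Control_1192 and Control_1193 and 79.4, 72.9 and 74.5 in Null_61, Null_1191 and Null_1195. All null livers were under 99.5 and far below all controls, with a log2 change of -1.80 (standard error 0.13, adjusted p = 5.10e-05). Its second probe set fell too, from 176 ± 30.3 to 18.1 ± 7.94 (log2 change -2.05, adjusted p = 9.96e-05). Slc17a3 gave 323, 260 and 248 among controls and 132, 125 and 98.3 among nulls in the same order. The groups did not overlap, and the fall was 2.05-fold (log2 change -1.04, standard error 0.15, adjusted p = 0.00278). The third gene of the row, Slc17a1, the kidney and liver urate carrier of the group, had means of 39.0 and 35.5, under the array medians in both groups, where a change is hard to see. Of the other 4 Slc17a genes, which serve lysosomes and secretory vesicles, none was called (adjusted p from limma, with 1 lower at an unadjusted p under 0.05). Slc17a6, a vesicular glutamate transporter, read 128 ± 16.1 and 82.8 ± 14.4 with no overlap (log2 change -0.48, adjusted p = 0.0875), and it was called lower only with the number run as a block (adjusted p = 0.0403). Its dimmer probe set had means of 22.3 and 29.1, under the array medians, and a log2 change of 0.16. Averaged over its probe sets, the log2 change of Slc17a6 was -0.16 (adjusted p = 0.412). The lysosomal sialic acid carrier Slc17a5 and the vesicular nucleotide carrier Slc17a9 had log2 changes of -0.14 and 0.09.

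**Figure D2:**
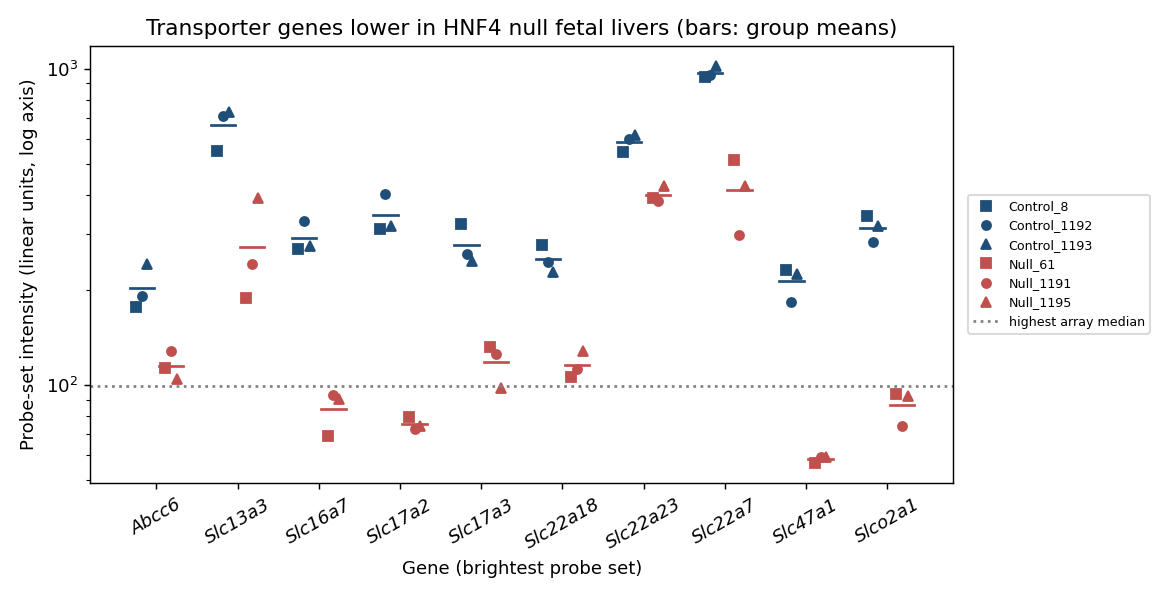
Intensity (log axis) of the 10 genes called lower in each control liver (blue) and null liver (red), with group means as bars and the highest array median as a dotted line. In each gene all 3 red points lie below all 3 blue points.

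The Slc22a family had 3 falls among 21 genes and 0 rises by limma, with 3 lower and 2 higher at an unadjusted p under 0.05. Slc22a7 encodes OAT2, a liver uptake carrier for organic anions. It read 942, 955 and 1023 in Control_8, Control_1192 and Control_1193 and 517, 299 and 425 in Null_61, Null_1191 and Null_1195. Null_1191 was lowest and Null_61 highest among the nulls, and the groups were well apart. The fall was 2.30-fold (log2 change -1.20, standard error 0.18, adjusted p = 0.0036), and it was called in all 17 alternative fits.

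Slc22a18, an imprinted gene whose product resembles organic cation carriers, gave 277, 245 and 228 among controls and 106, 113 and 128 among nulls. No null liver reached a control, and the fall was 1.91-fold (log2 change -0.93, adjusted p = 0.00213). Its dimmer probe set read 127 ± 32.5 and 76.2 ± 7.51 in the same direction without passing (adjusted p = 0.105). Slc22a23, an orphan member with no settled substrate, gave 546, 601 and 619 among controls and 391, 383 and 426 among nulls. Its groups did not overlap, and the fall was the smallest of the 10, at 1.44-fold (log2 change -0.52, adjusted p = 0.0248). That call was lost without Control_8, Control_1192, Control_1193 or Null_1191 (adjusted p = 0.0548, 0.115, 0.114 and 0.0943), with quantile normalization (0.0909) and with embryo sex as a term (0.0786).

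Slc22a5, the carnitine transporter OCTN2, read 174 ± 24.8 and 143 ± 41.8 and was not called, with a 95% interval of the log2 change from -0.70 to 0.19. Its neighbours on chromosome 11, Slc22a4 and Slc22a21, had log2 changes of -0.22 and 0.30 at mean levels under 99.5. None of the 8 Slc22a genes on chromosome 19 was called by limma, and 0 lower and 1 higher passed an unadjusted p of 0.05, with log2 changes from -0.16 to 0.55. These include the renal anion carriers Slc22a6 and Slc22a8 and the urate exchanger Slc22a12, which read 400 ± 61.5 and 494 ± 125. They also include Slc22a26, Slc22a27, Slc22a29 and Slc22a30, close copies of one another whose probe sets may take up each other's transcripts. Markers of kidney were dim, with a summed level of 532 to 618 among controls and 618 to 703 among nulls over 6 genes. Of these 1, Kap, rose, where 1.56% of all genes rose. Slc22a14, a gene best known from sperm, gave 2080 ± 217 and 2303 ± 98.2 in its single probe set. Slc22a16, a carnitine carrier of testis and blood cells, read 477 in Null_61 against 893 and 964 in the other nulls and 730, 873 and 954 in the controls, so that 1 null liver stood apart.

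Slc47a1, the single measured gene of its family, fell steeply. It encodes MATE1, which expels organic cations such as metformin from hepatocytes into bile and from kidney cells into urine. It gave 231, 184 and 225 among controls and 56.8, 59.1 and 59.5 among nulls. The null values lay very close together and under 99.5, and the log2 change was -1.43 (standard error 0.12, adjusted p = 0.000145).

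Of 13 monocarboxylate transporter genes, 1 fell and 0 rose by limma (1 lower and 2 higher at an unadjusted p under 0.05). The gene that fell was Slc16a7, which encodes MCT2, a carrier with high affinity for pyruvate and lactate. It read 270, 330 and 275 in Control_8, Control_1192 and Control_1193 and 69.3, 92.8 and 90.2 in Null_61, Null_1191 and Null_1195. All nulls were under 99.5, and the log2 change was -1.48 (standard error 0.14, adjusted p = 0.00023). Slc16a1, the widely expressed lactate carrier MCT1, read 1979 ± 104 and 1867 ± 120. Its log2 change of -0.08 had a 95% interval from -0.31 to 0.14, and with quantile normalization it was 0.15. The difference between Slc16a7 and Slc16a1 in response was not tested. Slc16a10, an aromatic amino acid and thyroid hormone carrier, gave 309, 432 and 353 among controls and 501, 435 and 464 among nulls, with no overlap but an adjusted p of 0.206. Slc16a3, the exporter of lactate from glycolytic cells, had means of 176 and 183 and a wide spread among the nulls (SD 67.6). Slc16a12 and Slc16a11, known as a creatine carrier and a liver monocarboxylate carrier, had log2 changes of -0.12 and 0.11 and reversed sign, in turn, with quantile normalization (0.05) and without Control_8 (-0.02).

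In the Slc13a family, the dicarboxylate carrier fell and the citrate carrier of liver was not called. Slc13a3 encodes NaDC3, which brings succinate and other Krebs cycle dicarboxylates into cells. Its brightest probe set gave 550, 711 and 730 among controls and 188, 241 and 390 among nulls. The nulls spread widely but stayed under every control, and the fall was 2.35-fold (log2 change -1.23, standard error 0.23, adjusted p = 0.0128). Its other 2 probe sets with signal above the array medians fell as well, with log2 changes of -1.14 and -1.22, and the fourth was near background at 16.2 ± 9.16 and 16.0 ± 10.8. Of the 3, 2 are of the Affymetrix type that can also take up similar transcripts, and the one with a log2 change of -1.22 is not. The call of the brightest was lost without Control_1192, Control_1193 or Null_1191 (adjusted p = 0.0729, 0.0633 and 0.0622). Slc13a5, the sodium-citrate carrier, read 162 ± 10.7 and 168 ± 6.90, and its 95% interval ran from -0.21 to 0.30. The sulfate carrier Slc13a4 gave 344, 342 and 324 among controls and 253, 220 and 247 among nulls. Its groups did not overlap, yet it just missed the threshold (log2 change -0.44, adjusted p = 0.0538) and passed it in 6 of 17 alternative fits. The dicarboxylate carrier of kidney and gut, Slc13a2, read 277 ± 13.1 and 320 ± 18.6 and was not called (adjusted p = 0.376).

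Among 13 Slco genes, 1 fell and 0 rose by limma (1 lower and 1 higher at an unadjusted p under 0.05). Slco2a1 encodes the prostaglandin transporter, which clears prostaglandins from the blood and is known from endothelium as well as epithelia. Its brightest probe set gave 341, 284 and 320 among controls and 93.6, 74.2 and 92.5 among nulls. The nulls were all under 99.5, with a log2 change of -1.55 (standard error 0.13, adjusted p = 0.000114). The other 3 probe sets of Slco2a1 were not called: the next brightest gave 122 ± 19.2 and 137 ± 23.0, and both others had means under 99.5 in each group. Averaged over its probe sets, the log2 change of Slco2a1 was -0.36 (adjusted p = 0.0445). Of 6 endothelial markers, 3 fell, namely Stab2, Kdr and Tek, where 7.85% of all genes fell. The summed level of the 6 was 1705 to 1939 among controls and 1179 to 1387 among nulls. Tek had both means under 99.5, at 93.3 and 56.1. The 3 others were not called. Lyve1 read 406 ± 14.4 and 284 ± 61.3 with no overlap (adjusted p = 0.106 by limma). Pecam1 read 87.7 ± 7.88 and 81.7 ± 28.6, and Cdh5 read 343 ± 28.7 and 328 ± 20.2. The part of endothelial cells in the fall of Slco2a1 was not tested.

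The remaining organic anion transporting polypeptides were not called. Slco1a4, Slco1a5, Slco1a6 and Slco1c1, which lie in the same stretch of chromosome 6, had log2 changes from -0.22 to 0.25. Slco2b1, a broad steroid sulfate carrier, gave 112, 140 and 139 among controls and 150, 167 and 188 among nulls with an adjusted p of 0.233, and its second probe set had a log2 change of 0.36 (adjusted p = 0.105). Slco4a1, a thyroid hormone carrier of many tissues, read 179 ± 7.61 and 208 ± 13.7, and Slco5a1 and Slco6d1, both of unsettled substrate, had log2 changes of -0.03 and -0.08. Both signs turned with quantile normalization (0.05 and 0.01).

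**Figure D3:**
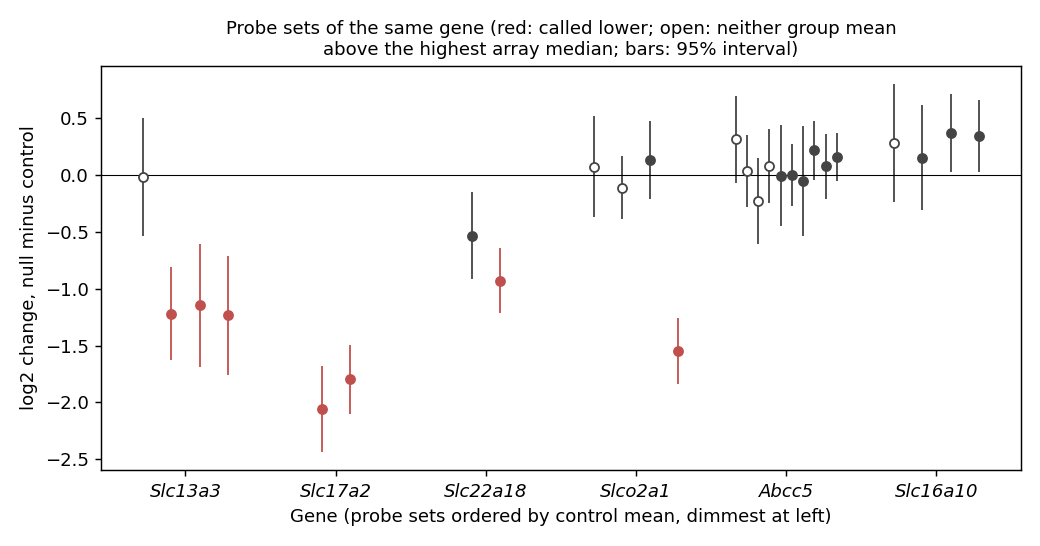
Log2 change, null minus control, with the 95% interval of every probe set of 6 transporter genes that have several, ordered within a gene by control mean. The probe sets of Slc13a3 and Slc17a2 with signal above 99.5 moved alike, 1 of 4 probe sets of Slco2a1 was called, and none of Abcc5 or Slc16a10 was.

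Of 8 Abcc genes, 1 fell, and of 6 Abcb genes 0 fell, while 0 rose in either by limma. Abcc6 encodes MRP6, a hepatocyte pump whose loss leads to calcification of soft tissue through low plasma pyrophosphate. It gave 177, 192 and 242 among controls and 113, 128 and 104 among nulls. The groups did not overlap and the fall was 1.59-fold (log2 change -0.67, standard error 0.14, adjusted p = 0.0228). The call of Abcc6 was lost without Control_1192, Control_1193, Null_1191 or Null_1195 (adjusted p = 0.0798, 0.0906, 0.0504 and 0.079) and with embryo sex as a term (0.0678).

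Abcc5, an exporter of cyclic nucleotides and other anions, was read by 10 probe sets, none of them called, with log2 changes from -0.23 to 0.31. The brightest gave 2456, 2321 and 2587 among controls and 2594, 2821 and 2825 among nulls, and it was called higher only with quantile normalization (log2 change 0.38, adjusted p = 0.0396). Abcc8 and Abcc9, which are regulatory subunits of potassium channels rather than pumps, had log2 changes of 0.40 and 0.39 with adjusted p values of 0.267 and 0.423. The control mean of Abcc8 was 95.4, under 99.5, and its dimmer probe set had a log2 change of -0.29. Averaged over probe sets, the log2 changes of Abcc8 and Abcc9 were 0.06 and 0.21.

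The Abcb genes had 1 lower and 1 higher at an unadjusted p under 0.05. Abcb1a, a P-glycoprotein that pumps out drugs, gave 151, 164 and 172 among controls and 118, 115 and 127 among nulls, with no overlap and an adjusted p of 0.114. Abcb8, a mitochondrial transporter, gave 654, 708 and 724 among controls and 802, 881 and 917 among nulls. It too had no overlap, with an adjusted p of 0.149, and it was called higher only with quantile normalization (log2 change 0.51, adjusted p = 0.0233). Its dimmer probe set had the opposite sign, at 130 ± 10.8 and 105 ± 1.39 with no overlap (log2 change -0.24, adjusted p = 0.269). The mitochondrial transporter Abcb10, which is abundant in erythroid cells, read 1091 ± 142 and 1326 ± 118 (log2 change 0.28, adjusted p = 0.258, and -0.0045 averaged over probe sets), with -0.45 to 0.28 across its 3 probe sets, and Abcb6, linked to porphyrins, read 417 ± 38.3 and 421 ± 7.48. Of 4 measured erythroid markers none was called by limma (0 lower and 1 higher at an unadjusted p under 0.05), and their summed level was 11410 to 11510 among controls and 12830 to 13060 among nulls. The part of erythroid RNA in the Abcb values was not tested.

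The limits of what was not called can be given for the genes with signal. In each of the 39 transporter genes that had a control mean above 99.5 and were not called, the 95% interval of the log2 change lay between -1 and 1. This limit holds after 32 is added to each value, so on the intensity itself it is wider, and most so for the dimmer of these genes. For 24 genes neither group mean was above 99.5, so that changes there could not be seen well. Among these dim genes, Slc22a13 had the largest positive log2 change, 1.02, from values of 28.3, 26.8 and 0.977 among controls and 148, 74.9 and 18.2 among nulls, which overlapped.

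The 10 falls were seen in each null liver and in each run of title numbers. Against the control mean, their median log2 differences were -1.24 (Null_61), -1.35 (Null_1191) and -1.19 (Null_1195). The difference of Null_61 from Control_8 was below 0 for all 10, with a median of -1.28, and so was the difference within the other 4 arrays, with a median of -1.26. Since these genes were called on the same arrays, the values describe how evenly they moved and are no further test. For the 64 transporter genes not called, the medians of both differences were 0.09 and 0.13. Among the 10 called genes, Slc22a7 differed most in size between the runs, at -0.83 and -1.39. The 4 arrays other than Control_8 and Null_61, fitted alone, gave 10 calls, the same 10 genes. Embryo sex differed between the groups within each run. Control_8 was female and Null_61 male, while Control_1192 and Control_1193 were male and Null_1191 and Null_1195 female. Genotype and sex therefore cannot be told apart within a run.

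**Figure D4:**
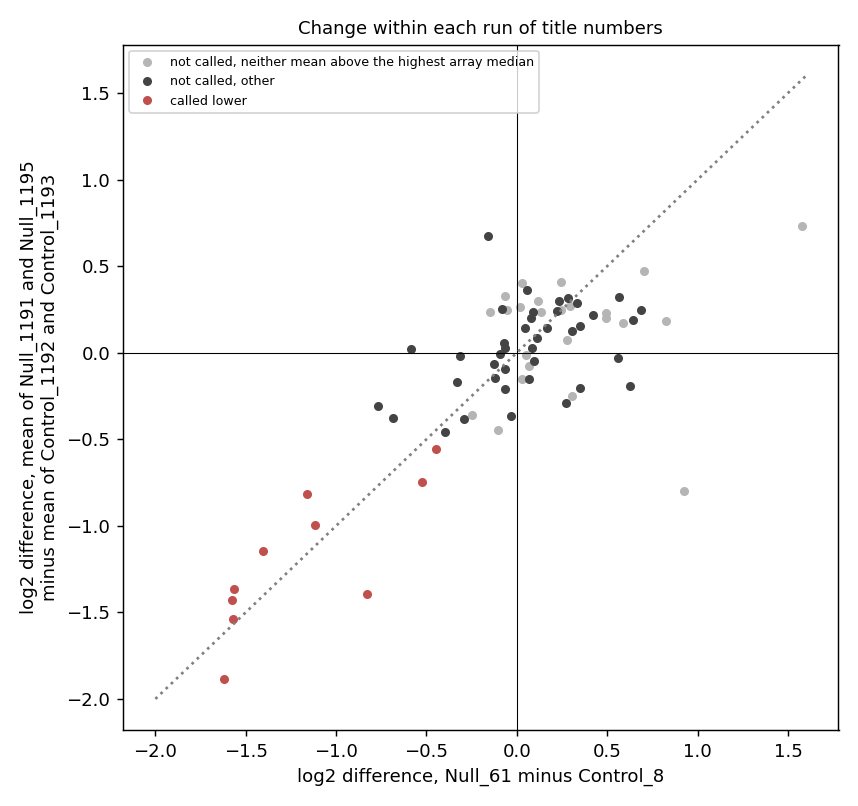
Log2 difference of Null_61 from Control_8 (horizontal) against that of the means of the other null and control livers (vertical) for the 74 transporter genes, with a dotted line of equality. The 10 genes called lower (red) lie below 0 on both axes.

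The 6 bile transporters set aside by name had 4 falls, where 7.85% of all genes fell. The bile salt pump Abcb11 read 1480 ± 321 in control livers and below 0 in all 3 null livers, where its log2 change is set by the pseudocount and is not given. The uptake carrier Slco1b2 went from 1023 ± 46.0 to 25.4 ± 10.9, and the conjugate pump Abcc2 and the phospholipid flippase Abcb4 had log2 changes of -1.38 and -0.91. Abcc3 and Slco1a1 were not called (log2 change 0.43 and -0.05). Of 13 measured transporters of like substrates outside the families, 2 fell: the bile salt carrier Slc10a1, from 2845 ± 87.0 to 77.8 ± 15.2, and the cholesterol exporter Abca1, from 1750 ± 71.0 to 777 ± 106. The drug pump Abcg2 read 903 ± 75.3 and 918 ± 129.

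Some genes for proteins that hold these carriers at the membrane, and for receptors known to control carrier genes, fell too. Their counts stand beside 7.85% of all genes lower, or 11.2% of genes with a control mean above 99.5. Of 11 scaffold and partner genes 3 fell, with a median log2 change of -0.16 over the list. They were Slc9a3r1 and Pdzk1, PDZ proteins that anchor carriers at the apical membrane, and Myo5b, a motor of apical recycling, with log2 changes of -1.19, -1.89 and -0.74. Bsg, the chaperone of MCT1, read 3689 ± 167 and 3524 ± 319. Of 12 receptor and factor genes 5 fell, with a median of -0.51. The 3 with the smallest adjusted p were Nr1i2, the pregnane X receptor, at -1.77, Nr1h4, the bile acid receptor, at -1.48, and Ahr, the aryl hydrocarbon receptor, at -0.66. Of these, Nr1i2 had a null mean of 48.4, under 99.5, so its log2 change is limited by the pseudocount. Nfe2l2, the factor of the oxidative stress response, had a log2 change of -0.07.

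Enzymes that use or make the carried substrates were asked about by substrate. Of 7 genes of carnitine synthesis and use, 4 fell (median log2 change -0.74). Bbox1, the last enzyme of carnitine synthesis, went from 263 ± 29.4 to 30.4 ± 2.06. Its null mean lay under the pseudocount of 32, which limits its log2 change of -2.24. Crot and Cpt1a, carnitine acyltransferases, had null means above 99.5 and log2 changes of -2.24 and -1.44. Of 6 genes of citrate use 3 fell (median -0.64), namely Aco1, Slc25a1 and Fasn. Of 6 genes of urate formation and breakdown 3 fell (median -0.59), with Uox, which degrades urate, going from 6035 ± 880 to 673 ± 129, and with Pnp and Urah at -0.71 and -0.76. Of 6 genes of lactate and pyruvate use 3 fell and 1 rose (median -0.70). Pcx, pyruvate carboxylase, fell with a log2 change of -3.10, Mpc1, a subunit of the mitochondrial pyruvate carrier, with -1.64 and Pdk4, a brake on pyruvate oxidation, with -1.18, while Ldhb, a lactate dehydrogenase subunit, rose by 2.93.

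Thyroid hormone, heme and peptide loading lists had few calls. Of 6 genes of thyroid hormone handling 1 fell, Ttr, a plasma carrier of the hormone (log2 change -0.45, list median 0.14), and of 6 genes of antigen peptide loading 1 fell, B2m, the light chain of class I molecules (log2 change -1.21, list median 0.03). Of 11 genes of heme synthesis and iron-sulfur clusters 0 were called by limma (2 lower and 0 higher at an unadjusted p under 0.05, list median 0.08). These lists and those of the enzymes by substrate stand beside 7.85% of all genes lower and 1.56% higher. Most of the listed genes had a control mean above 99.5, where 11.2% of all genes were lower and 1.22% higher. No test compared the lists with other genes.

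Markers of other cell types also differed between the groups. Their counts stand beside 7.85% of all genes lower and 1.56% higher, or 11.2% and 1.22% of genes with a control mean above 99.5. At an unadjusted p under 0.05 from limma, 15.2% of all genes were lower and 9.1% higher. Of 7 macrophage and Kupffer cell genes 3 rose, with a summed level of 2808 to 3297 among controls and 4272 to 7069 among nulls, the highest in Null_61. Of 4 megakaryocyte genes 3 fell, with sums of 3546 to 4452 and 2539 to 2881. Of 7 stromal genes 0 were called by limma (0 lower and 2 higher at an unadjusted p under 0.05), with sums of 2755 to 3780 and 3421 to 5755, and of 5 neutrophil genes 0 were called (0 in either direction at an unadjusted p under 0.05), with sums of 14590 to 16120 and 12700 to 15360. Biliary markers gave 0 calls among 4 genes (1 lower and 0 higher at an unadjusted p under 0.05) and sums of 640 to 722 and 620 to 775. Of 7 hepatocyte genes 5 fell, with sums of 78090 to 79090 and 48430 to 51440. Those 5 were Apoa2, Apoa1, Fgb, Ttr and Ahsg, with log2 changes of -2.41, -1.94, -0.97, -0.45 and -0.36. Alb and Afp were not called. Lists for adrenal, pancreas and intestine had 1, 0 and 1 calls, all lower, among 4 genes each, and for pancreas 0 passed an unadjusted p of 0.05 by limma. The adrenal call was Hsd3b1, with 1329 ± 76.2 and 37.0 ± 11.5. Cyp11a1, Star and Cyp11b1 were not called, with log2 changes of -0.19, 0.39 and -0.17. Star and Cyp11b1 had means under 99.5 in both groups. The adrenal list thus did not move as one with Hsd3b1. The intestine call was Fabp2, with 154 ± 39.3 and 64.4 ± 9.71. Muc13, Cdx2 and Vil1 were not called, with log2 changes of 0.04, 0.12 and 0.04. The part of these cells in the transporter values was not tested.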

How the data were processed

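Total RNA from whole E18.5 livers, 3 control and 3 null, was biotin-labelled and hybridised to Affymetrix arrays, 1 array per sample, per the labels' protocols. The deposited values are linear probe-set intensities, as the values show, with 0.908% to 1.34% of each array below 0. How they were summarised, scaled and background-corrected, and with which software, is information not given in the sources used here. Whether livers share litters or were handled together is not in the labels, so each p reflects only how far these 6 arrays spread, and their number limits the precision.

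Negative values were raised to 0, and log2 was taken after adding 32. No further normalization was done, since array medians on this log2 scale differed by at most 0.0877. After 64 control probe sets were left out, 45037 were fitted with limma 3.58.1 in R 4.3.3 (lmFit, eBayes with intensity trend, no covariate, two-sided, Benjamini-Hochberg over all). Genes come from probe sets with 1 platform symbol. The exact permutation test of 3 against 3 cannot go below 0.1 and was not used. Of the 74 genes, 59 had RefSeq promoter windows (GRCm38.p6).

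The members, lists and motifs were chosen with earlier results of these data known. Named were, for each family, up to 5 called genes per direction, up to 3 uncalled genes with the highest mean level, genes whose probe sets disagreed, Hnf4a, the bile transporters set aside, and up to 3 called genes per direction of each list. Further genes, the promoters shown, the motif CAAAG and the shared run were picked after their values or letters were seen. Alternatives were quantile normalization, centred medians, pseudocounts of 1 and 100, a filter on level, no trend, array weights, a block for the number run, 4 arrays alone, embryo sex (female in Control_8, Null_1191 and Null_1195 by Xist and Y-linked probe sets) as a term, each array left out, a change of at least 2-fold, and the mean of probe sets.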

Additional observations from a re-analysis of the deposited data

How the results depend on the processing

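The transporter genes called lower numbered 10, and the alternatives run gave 7 to 12, with the lowest counts without Control_1192, Control_1193 or Null_1191 (7 each) and the highest with the number run as a block, where 4.98% (without Control_1192) and 11.1% (block) of all genes were lower. Probe sets called lower numbered 13, and 9 to 15 over the alternatives. With a change of at least 2-fold 7 genes counted, among them Slc13a3 but not Slc22a18, Slc22a23 or Abcc6. In 7 genes (Slc16a7, Slc17a2, Slc17a3, Slc22a7, Slc22a18, Slc47a1 and Slco2a1) the call was kept in all 17 alternative fits. Genes called higher numbered 0, but 2 with quantile normalization, Abcb8 and Abcc5 (2 probe sets), where the share of all genes called higher went from 1.56% to 3.39%, and 0 to 1 with single arrays left out (0 to 1 probe sets), the 1 being Slc22a13 without Null_1195. Quantile normalization moved the median log2 change of all genes from 0.01 to 0.06. The median log2 change of the transporter genes was 0.116 with quantile normalization and -0.027 over those above the median level, and 0.014 to 0.094 with single arrays left out. Signs near 0 turned for uncalled genes. With quantile normalization this held for Slc16a1 (0.1485), Slc16a12 (0.0509), Slc22a16 (0.0240), Slco5a1 (0.05) and Slco6d1 (0.0138). It held for Abcb10 with the mean of probe sets (-0.0045), Abcb6 with embryo sex (-0.0060) and Slc22a16 in 4 arrays (0.0225). With single arrays left out, log2 changes ran from -0.0574 to 0.0523 for Abcb6, -0.0180 to 0.2737 for Slc16a11, -0.3585 to 0.1259 for Slc22a16, -0.1331 to 0.0460 for Slco5a1 and -0.1488 to 0.0286 for Slco6d1. The cause was not tested. No paired analysis was possible because control and null livers share no title number, and the block above is the run of numbers, not pairs of livers. Signal under the array medians limits 24 genes.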
